A study of Homo sapiens with 27 samples.

Results

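The 10 genes described here are targets and effectors of the endoplasmic reticulum (ER) unfolded protein response: HSPA5, HSP90B1, CALR, PDIA4, SDF2L1, CRELD2, DNAJB9, HERPUD1, EDEM1 and XBP1. They were chosen by name, as the rows of the count table whose Entrez ID maps to these symbols, and all 10 were found among the 24566 rows of the table. RNA from 2 established human tumour cell lines was sequenced after 48 h of treatment. In A431 cells, an epidermoid carcinoma line, 5 groups were compared: cells left untreated, cells given the vehicle, cells given 1.0 mg/ml of CKI, cells given doxorubicin, and cells given both agents. In MDA-MB-231 cells, an adenocarcinoma line, the groups were untreated cells, CKI at 1.0 mg/ml, 5FU (5-fluorouracil) at 10 ug/ml, and CKI with 5FU. Each of the 9 groups held 3 biological replicates, 27 libraries in all. CKI (Compound Kushen injection) is a mixture of plant compounds extracted from the roots of Kushen and the rhizome of Baituling. Doxorubicin is an anthracycline that poisons topoisomerase II and intercalates in DNA, and 5FU is an antimetabolite that blocks thymidylate synthesis and is built into RNA. What the vehicle contained is not given by the labels, MDA-MB-231 has no vehicle group, and each line stands for 1 culture model of its tumour.

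Secreted and membrane proteins fold in the ER. When unfolded proteins build up there, the sensors IRE1 (gene ERN1), PERK (gene EIF2AK3) and ATF6 start a response that slows translation, induces chaperones and folding enzymes, and sends misfolded proteins to the cytosol for degradation. IRE1 splices the XBP1 mRNA, PERK acts through the translation factor eIF2-alpha and the transcription factor ATF4, and ATF6 is cut in the Golgi to release a transcription factor. Gene counts do not separate spliced from unspliced XBP1, so the values below are total XBP1 mRNA.

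Many genes of this response carry an ER stress response element in their promoter, in which ATF6 or XBP1 binds the CCACG part beside the general factor NF-Y on the CCAAT part. The 250 bases upstream of the RefSeq start sites (GRCh38.p14) were searched on both strands for CCAAT followed after 9 bases by CCACG (ERSE) and for ATTGG followed after 1 base by CCACG (ERSE-II). All 10 genes matched the promoter table, with 12 start sites. The ERSE was found in 5 of them (HSPA5, HSP90B1, CALR, CRELD2 and XBP1), against 25 of 27305 genes in the table, or 0.0916%. The ERSE-II was found in HERPUD1 and SDF2L1, against 18 genes, or 0.0659%. The 25 and 18 genes of the whole table include these members. The 10 genes were picked by name as part of this response, so these shares are a description and not a test. Neither element was found in the windows of DNAJB9, EDEM1 and PDIA4, although CCAAT and CCACG each occurred separately in all 10 genes (37% and 37.5% of all genes). The UPRE letters, TGACG directly followed by TGG, were found in none of the 10 and in 0.78% of all genes. The stretches around the elements are shown because they are the feature that 7 of the genes share outside the measurements. Capitals mark the element, and the sequences run 5′ to 3′ along each gene's own strand.
HSPA5, chr9:125241379-125241421, minus strand, 78 to 36 bases upstream: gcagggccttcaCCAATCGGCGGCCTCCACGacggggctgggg
XBP1, chr22:28800591-28800633, minus strand, 64 to 22 bases upstream: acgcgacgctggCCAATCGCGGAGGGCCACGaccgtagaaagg
CALR, chr19:12938372-12938414, plus strand, 237 to 195 bases upstream: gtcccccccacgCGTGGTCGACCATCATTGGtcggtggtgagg
CRELD2, chr22:49918542-49918584, plus strand, 92 to 50 bases upstream: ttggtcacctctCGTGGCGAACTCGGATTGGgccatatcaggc
HSP90B1, chr12:103930204-103930351, plus strand, 206 to 59 bases upstream: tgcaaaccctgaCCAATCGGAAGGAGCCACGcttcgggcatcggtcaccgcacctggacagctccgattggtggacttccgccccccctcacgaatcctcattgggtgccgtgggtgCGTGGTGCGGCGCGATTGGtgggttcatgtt
HERPUD1, chr16:56932013-56932047, plus strand, 129 to 95 bases upstream: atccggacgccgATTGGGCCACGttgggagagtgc
SDF2L1, chr22:21642102-21642136, plus strand, 200 to 166 bases upstream: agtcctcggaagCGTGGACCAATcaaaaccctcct

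In CALR and CRELD2 the ERSE lay on the opposite strand, HSP90B1 held 1 copy in each orientation, and the SDF2L1 element was also on the opposite strand. A match of letters is not a measured binding site, and binding was not measured.

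Library totals ranged from 17757206 to 21756536 counts in A431 and from 19871048 to 22809339 in MDA-MB-231, and each of the 10 genes had between 119 and 44592 counts in every library. Levels are given as CPM, read counts scaled to a common library size, after TMM scaling within a line. Fold changes are from edgeR's quasi-likelihood test, with p-values adjusted over all genes tested (15881 in A431, 13999 in MDA-MB-231 and 14848 in the comparisons between lines), and a gene is said to pass when the adjusted p is under 0.05. Replicates of a group differed beyond sampling noise everywhere, with a chi-square per degree of freedom between 1.83 and 5.46 in 7 of the groups. Replicate 1 of untreated MDA-MB-231 stood apart from replicates 2 and 3 (70.8 and 81.8), and the A431 vehicle libraries were spread (9.9 to 28.3). Values without replicate 1, without a vehicle library or with another control are therefore given beside many of the results. Replicate 1 had the highest untreated MDA-MB-231 level of HSP90B1 (1720, 1400 and 1370 CPM) and of HERPUD1 (69.0, 53.3 and 55.7 CPM). It was also highest in DNAJB9 (27.7, 17.9 and 18.7 CPM) and XBP1 (121, 110 and 106 CPM). In HSPA5, CALR, PDIA4, SDF2L1, CRELD2 and EDEM1 it was the lowest. Changes of the 10 genes against those cells include it unless stated. All 6 A431 markers, such as KRT5 and KRT14, were over 1 CPM in every A431 library, with a summed level of 5290 to 7970 CPM against 153 to 364 CPM in MDA-MB-231, marker levels being scaled over all 27 libraries. Of the 6 MDA-MB-231 markers, 5 were over 1 CPM in every library of that line, led by VIM, whereas SPARC was not, and TGFBI was higher in A431 (722 to 1250 CPM) than in MDA-MB-231 (180 to 351 CPM). Stromal and endothelial markers summed to between 11.3 and 48.4 CPM in A431 and between 4.91 and 12.5 CPM in MDA-MB-231. Leucocyte markers summed to at most 5.78 CPM in A431 and 0.992 CPM in MDA-MB-231. The libraries were unstranded, and HSP90B1 shares 282 bases (10.1% of its transcript) with UQCC6 on the opposite strand. CALR (14.2%) and EDEM1 (9.7%) overlap antisense long noncoding genes. Reads there cannot be told apart by strand, and how the counting treated them is not given.

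In untreated cells of both lines the chaperones HSPA5, HSP90B1 and CALR had the highest mean level per kilobase of transcript of the 10 genes, and DNAJB9 the lowest. HSPA5 (Entrez 3309, chromosome 9, 127997132 to 128003661, GRCh37), the ER Hsp70 chaperone BiP that also holds the sensors inactive, stood at 1270, 1260 and 1350 CPM in the untreated A431 libraries and at 1100, 1180 and 1190 CPM in MDA-MB-231. HSP90B1 (Entrez 7184, chromosome 12, 104323885 to 104347709), the ER Hsp90 chaperone GRP94, stood at 1410, 1450 and 1440 CPM in A431 and at 1720, 1400 and 1370 CPM in MDA-MB-231. CALR (Entrez 811, chromosome 19, 13049392 to 13055303), the calcium-binding lectin chaperone calreticulin, had 1510, 1490 and 1640 CPM in A431 and 1940, 2080 and 2010 CPM in MDA-MB-231. These 3 genes were close between the lines, and the HSP90B1 libraries of the lines overlapped. PDIA4 (Entrez 9601, chromosome 7, 148700154 to 148725754), a protein disulfide isomerase, had 509, 508 and 563 CPM in A431 against 302, 345 and 348 CPM in MDA-MB-231. SDF2L1 (Entrez 23753, chromosome 22, 21996591 to 21998588), which works in the BiP chaperone cycle, had 76.6, 74.8 and 85.1 CPM against 20.3, 33.0 and 32.1 CPM. CRELD2 (Entrez 79174, chromosome 22, 50311815 to 50321188), an ER-resident protein with disulfide isomerase activity, had 129, 125 and 147 CPM against 22.7, 25.2 and 22.8 CPM. These folding factors were higher in every A431 library than in every MDA-MB-231 library.

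DNAJB9 (Entrez 4189, chromosome 7, 108210311 to 108215294), the J-domain co-chaperone ERdj4 that brings BiP to IRE1, showed the opposite order, with 8.64, 9.7 and 7.5 CPM in untreated A431 and 27.7, 17.9 and 18.7 CPM in MDA-MB-231. HERPUD1 (Entrez 9709, chromosome 16, 56966054 to 56978776), a membrane component of the ubiquitin ligase complex of ER-associated degradation, had 44.4, 45.8 and 45.7 CPM in A431 and 69.0, 53.3 and 55.7 CPM in MDA-MB-231. EDEM1 (Entrez 9695, chromosome 3, 5229331 to 5261643), which directs misfolded glycoproteins to degradation, had 45.2, 47.1 and 48.0 CPM in A431 and 77.6, 91.4 and 95.5 CPM in MDA-MB-231. In all 3 every A431 library was below every MDA-MB-231 library. XBP1 (Entrez 7494, chromosome 22, 29190543 to 29196585), the transcription factor of the IRE1 branch, had 102, 106 and 118 CPM in A431 and 121, 110 and 106 CPM in MDA-MB-231, and these libraries overlapped.

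**Figure D1:**
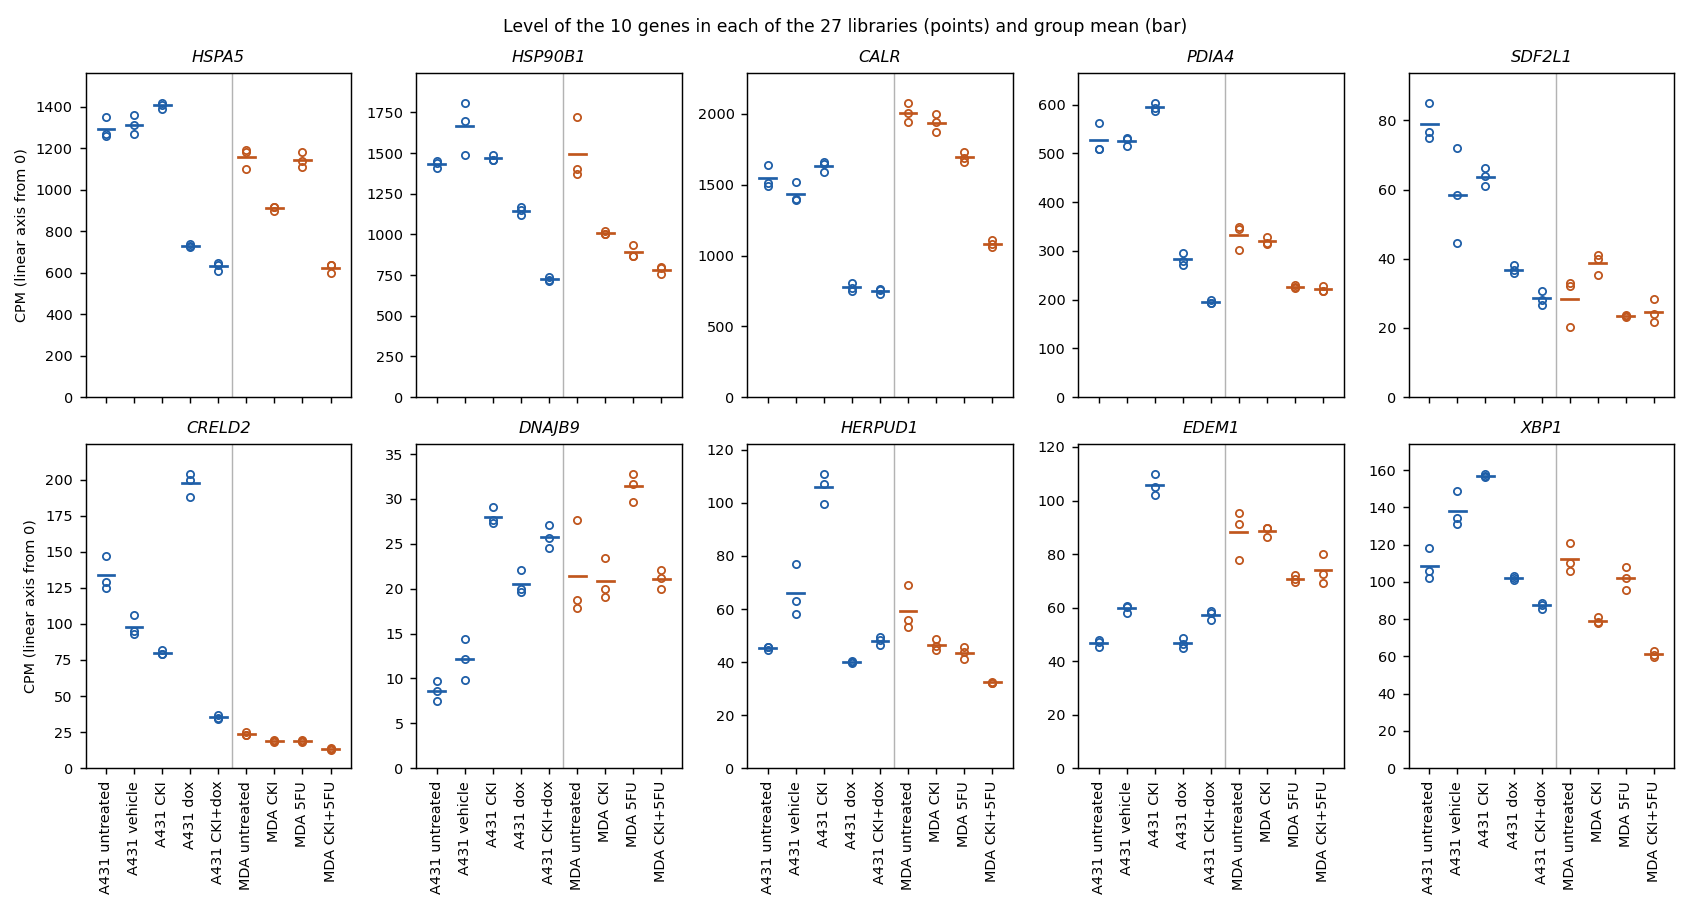
CPM (linear axis from 0) of each of the 10 genes in each of the 27 libraries (points) with the mean of each group (bar), A431 in blue at left and MDA-MB-231 (MDA) in orange at right of the line. Within A431, DNAJB9, HERPUD1 and EDEM1 were highest with CKI (28, 106 and 105 CPM on average), and CRELD2 was at 197 CPM with doxorubicin and 35.3 CPM with CKI and doxorubicin.

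Per kilobase of transcript, CALR (813 ± 41.1 CPM per kb, SD, n = 3), HSP90B1 (515 ± 8.55) and HSPA5 (330 ± 11.7) led in untreated A431 cells, and DNAJB9 was lowest (3.58 ± 0.457). SDF2L1 (95.5 ± 6.65) and CRELD2 (93.4 ± 8.09) were neighbours in this order whose libraries overlapped. The same 3 genes led in untreated MDA-MB-231 cells, at 1060 ± 36.2, 538 ± 68.9 and 295 ± 11.5 CPM per kb, and DNAJB9 was again lowest at 8.9 ± 2.25. CRELD2 was at rank 6 in untreated A431 and at rank 8 in untreated MDA-MB-231 (16.5 ± 0.98 CPM per kb). With doxorubicin in A431 it moved to rank 4 (138 ± 5.52 CPM per kb), above PDIA4, and HSP90B1 (412 ± 8.62) and CALR (408 ± 14.1) then overlapped.

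Between the untreated lines, 4 of the 10 genes were higher in A431 (41.9% of all genes were) and 4 were lower (36.7% of all genes). CRELD2 was 5.9-fold higher in A431 (log2 2.56 ± 0.077 SE, adjusted p = 2.9e-12) and SDF2L1 2.89-fold higher (1.53 ± 0.14, adjusted p = 2.7e-07), the 2 members among the 22.5% of genes that were over 2-fold higher. PDIA4 differed by 0.73 and HSPA5 by 0.22 on the log2 scale, and the latter call was lost when any 1 of the 3 untreated A431 libraries was left out (adjusted p 0.058 to 0.11). DNAJB9 was 2.38-fold lower in A431 (-1.25 ± 0.17, adjusted p = 1.3e-05), as 20.4% of genes were lower by over 2-fold, and EDEM1 was lower by 1.81-fold (-0.85 ± 0.076). HERPUD1 (-0.33, adjusted p = 0.0066) and CALR (-0.32, adjusted p = 0.00036) were also lower. HSP90B1 (interval of the log2 difference from -0.19 to 0.18) and XBP1 (-0.15 to 0.17) did not pass. HSP90B1 was higher in A431 by 0.11 (adjusted p = 0.03) when replicate 1 of untreated MDA-MB-231 was left out, and with the A431 vehicle control in place of untreated cells HERPUD1 was at 0.21 (adjusted p = 0.12) and XBP1 at 0.36 (adjusted p = 0.00077).

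With CKI, A431 cells had higher levels of the degradation factors HERPUD1 and EDEM1, of the co-chaperone DNAJB9 and of XBP1, while the abundant chaperones were within 1.13-fold of untreated cells and CRELD2 was lower. In all, 6 of the 10 genes rose, against 33.3% of all genes, and 2 fell, against 33.7%. The 3 that rose over 2-fold (DNAJB9, HERPUD1 and EDEM1) stand beside 12% of all genes. The median log2 change of the 10 was 0.15 and that of all genes 0, or 0.26 and 0.11 with library size alone in place of TMM factors.

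DNAJB9 had 29.1, 27.3 and 27.6 CPM with CKI, all above the untreated libraries, and rose 3.24-fold (log2 1.69 ± 0.11, adjusted p = 3.3e-12). HERPUD1 had 111, 99.7 and 107 CPM and rose 2.34-fold (1.23 ± 0.077, adjusted p = 2e-12). EDEM1 had 102, 110 and 105 CPM and rose 2.25-fold (1.17 ± 0.058, adjusted p = 2.4e-14). In these 3 genes the lowest CKI library was more than 2-fold above the highest untreated library. XBP1 rose 1.45-fold (0.53 ± 0.06, adjusted p = 4.7e-08), to 158, 156 and 157 CPM. Among the folding factors, PDIA4 rose by 0.18 ± 0.052 (587, 594 and 604 CPM, adjusted p = 0.0046) and HSPA5 by 0.12 ± 0.048 (1420, 1390 and 1410 CPM, adjusted p = 0.033). The HSPA5 call was lost when any of 5 of the 6 libraries was left out (adjusted p 0.058 to 0.12). HSP90B1 (1490, 1460 and 1460 CPM, interval -0.09 to 0.15) and CALR (1590, 1660 and 1650 CPM, interval -0.03 to 0.19) did not pass.

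CRELD2 fell 1.67-fold with CKI (78.8, 81.7 and 79.3 CPM, log2 -0.74 ± 0.066, adjusted p = 8.9e-10), and every CKI library was below every untreated one. SDF2L1 fell by 0.31 ± 0.1 (61.1, 66.1 and 63.9 CPM, adjusted p = 0.012), but with offsets for GC content and transcript length it was higher by 0.24 (adjusted p = 7e-04), and against the vehicle control it was at 0.13 (adjusted p = 0.3). Its call was lost without CKI replicate 1 (adjusted p = 0.056), without untreated replicate 3 (adjusted p = 0.068) and by library size alone (-0.20, adjusted p = 0.09). The CRELD2 value was -0.35 with these offsets and -0.29 against the vehicle control, both past the test. In bulk RNA a change in RNA per cell and a change in the share of cells that express a gene cannot be told apart.

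The vehicle control alone differed from untreated A431 cells in 7 of the 10 genes, measured against the same untreated libraries as the CKI comparison. HERPUD1 was higher by 0.54 ± 0.078 (76.9, 62.9 and 58.1 CPM, adjusted p = 1.4e-05), DNAJB9 by 0.49 ± 0.12 (14.4, 12.2 and 9.85 CPM, adjusted p = 0.0026), EDEM1 by 0.35 ± 0.059 (60.4, 58.1 and 60.6 CPM) and XBP1 by 0.35 ± 0.061 (149, 134 and 131 CPM). HSP90B1 was higher by 0.22 ± 0.057 (1810, 1700 and 1490 CPM), so that 5 genes rose, against 23.2% of all genes. CRELD2 fell by 0.45 ± 0.066 (92.9, 94.8 and 106 CPM) and SDF2L1 by 0.43 ± 0.1 (44.6, 58.4 and 71.9 CPM), against 19.3% of all genes that fell. HSPA5 (interval -0.08 to 0.12) and PDIA4 (-0.11 to 0.11) did not pass, nor did CALR (-0.22 to 0). Each of the 7 calls held when any 1 vehicle library was left out, with HERPUD1 between 0.42 and 0.63 and DNAJB9 between 0.36 and 0.62. SDF2L1 was at -0.27 without vehicle replicate 1 and at -0.61 without replicate 3, and CALR passed without replicate 3 (-0.15, adjusted p = 0.024), when 47.7% in place of 42.5% of all genes passed.

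Across 15843 genes, the difference between vehicle and untreated libraries had a Spearman rho of -0.58 with GC content and 0.31 with transcript length. The GC content of the 10 transcripts ran from 37.3% in DNAJB9 to 65.1% in SDF2L1, followed by 60.7% in CRELD2. Once GC content and length were offset, 3 of the 10 genes passed, against 22.5% of all genes. HERPUD1 (0.44) and XBP1 (0.35) were higher and HSPA5 was lower (-0.14, adjusted p = 0.012). SDF2L1 was then at 0.15 (adjusted p = 0.079), CRELD2 at -0.05, DNAJB9 at 0.22, EDEM1 at 0.14 and HSP90B1 at 0.00, none of which passed. What the GC trend came from was not tested.

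**Figure D2:**
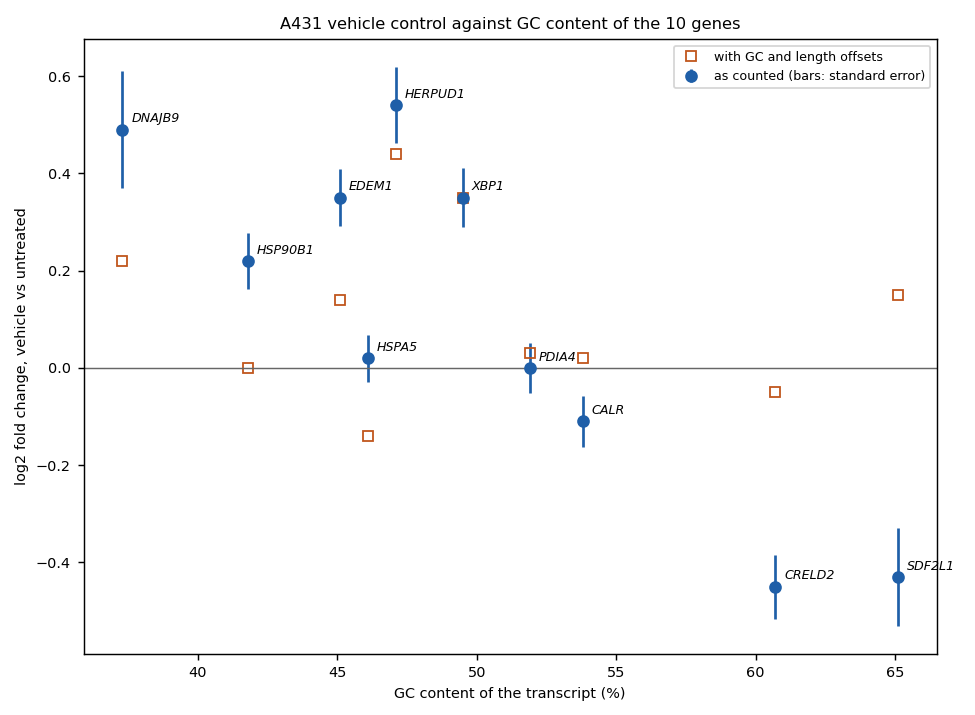
Log2 fold change between vehicle and untreated A431 cells (y) of the 10 genes against the GC content of their transcripts in percent (x), as counted (blue points, bars give the standard error) and with the GC and length offsets (open orange squares). As counted, DNAJB9 at 37.3% GC was at 0.49 and SDF2L1 at 65.1% GC at -0.43, whereas with the offsets they were at 0.22 and 0.15, neither past the test.

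Against the vehicle control, CKI still raised DNAJB9 by 1.21, EDEM1 by 0.82, HERPUD1 by 0.68 and XBP1 by 0.18 on the log2 scale (adjusted p between 5.4e-10 and 0.0097), but DNAJB9 was then the single member over 2-fold. With the vehicle as control and the offsets together these 4 values were 1.47, 0.78, 0.81 and 0.37. HSP90B1 fell by 0.19 against the vehicle (adjusted p = 0.0064) and was at 0.01 with the offsets (adjusted p = 0.77). CALR rose by 0.18 against the vehicle and by 0.33 against untreated cells with the offsets.

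Doxorubicin lowered the abundant chaperones of A431 cells and raised DNAJB9 and CRELD2. In this comparison 6 of the 10 genes fell, against 39.9% of all genes, and 2 rose, against 40.7%. SDF2L1 was the member that fell over 2-fold (14.3% of all genes) and DNAJB9 the member that rose over 2-fold (23% of all genes). Against the vehicle control the single member over 2-fold was CRELD2, with means of 197 against 97.9 CPM. SDF2L1 (36.9 against 58.3 CPM) and DNAJB9 (20.6 against 12.1 CPM) were then under 2-fold. Markers of cell types moved in the same comparison. All 6 A431 markers passed over 2-fold, 2 higher and 4 lower (median -1.09), and their summed level was 5290 to 5450 CPM with doxorubicin against 6810 to 7330 CPM in untreated cells. The leucocyte markers summed to 3.18 to 3.8 CPM against 0.869 to 1.32 CPM, and both that could be tested (PTPRC and ITGAM) were higher. Stromal and endothelial markers summed to 11.3 to 13.1 CPM against 23 to 26 CPM, with 2 higher and 2 lower of 4. With CKI and doxorubicin the sums were 5600 to 5950, 4.01 to 5.78 and 45.7 to 48.4 CPM for these 3 lists. With CKI alone 4 of the 6 A431 markers were higher and 1 lower, at 7670 to 7970 CPM in sum. The part of these shifts in the results was not tested.

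HSPA5 had 724, 729 and 737 CPM with doxorubicin and fell 1.77-fold (log2 -0.82 ± 0.049, adjusted p = 4.2e-13). CALR had 771, 751 and 804 CPM and fell 1.99-fold (-0.99 ± 0.053, adjusted p = 7.2e-14). PDIA4 had 272, 280 and 295 CPM and fell 1.86-fold (-0.90 ± 0.053, adjusted p = 3.8e-13). SDF2L1, with 36.6, 35.9 and 38.1 CPM, fell 2.14-fold (-1.10 ± 0.11, adjusted p = 3.3e-09). In these 4 folding factors every doxorubicin library was below every untreated one, and HSP90B1 (1120, 1170 and 1150 CPM) fell less, by 0.32 ± 0.057. CRELD2 had 200, 188 and 204 CPM, the highest of the 9 groups, and rose 1.48-fold (0.56 ± 0.065, adjusted p = 4.2e-08). DNAJB9 had 22.1, 19.6 and 20.0 CPM and rose 2.38-fold (1.25 ± 0.11, adjusted p = 7.9e-10).

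The degradation factors and XBP1 were near the untreated level with doxorubicin, but below the vehicle level. Every doxorubicin library was below every vehicle library in HERPUD1 (means of 40 and 66 CPM), EDEM1 (46.6 and 59.7 CPM) and XBP1 (102 and 138 CPM). HERPUD1 (40.5, 39.5 and 39.9 CPM) fell by 0.18 ± 0.08 (adjusted p = 0.043), a call lost when any of 5 of the 6 libraries was left out (adjusted p 0.054 to 0.077). EDEM1 (48.5, 46.4 and 45.0 CPM, interval -0.13 to 0.12) and XBP1 (102, 103 and 101 CPM, interval -0.22 to 0.03) did not pass. TMM scaling assumes that most genes do not change. Under library size alone the median of all genes was 0.36 in place of 0.02, and 67% in place of 50.5% of the calls were increases. HSP90B1 was then at 0.02, HERPUD1 at 0.16, EDEM1 at 0.34 and XBP1 at 0.25, each at or below that median, while HSPA5, CALR, PDIA4 and SDF2L1 fell by 0.48 to 0.75.

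CKI together with doxorubicin gave the lowest levels in A431 of HSPA5, HSP90B1, CALR, PDIA4, SDF2L1, CRELD2 and XBP1. Against untreated cells 7 of the 10 genes fell (38.5% of all genes) and 2 rose (40.7%), and 5 fell over 2-fold (13.8%) and 1 rose over 2-fold (21.7%). CRELD2 had 36.6, 35 and 34.2 CPM and fell 3.78-fold (log2 -1.92 ± 0.07, adjusted p = 7.4e-17). SDF2L1 had 30.8, 26.7 and 28.1 CPM and fell 2.76-fold (-1.46 ± 0.11). PDIA4 had 199, 192 and 193 CPM and fell 2.7-fold (-1.43 ± 0.053). HSPA5 (639, 609 and 649 CPM) fell by 1.03, CALR (755, 726 and 761 CPM) by 1.05 and HSP90B1 (712, 721 and 741 CPM) by 0.98 on the log2 scale. XBP1 (87.7, 85.6 and 88.7 CPM) fell by 0.32 ± 0.061. The number that fell over 2-fold was 3 with DESeq2, RLE factors, library size alone, at least 10 counts in every library or the compared groups alone, where 8.23% to 12.7% of all genes did.

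DNAJB9 stayed high with the combination, at 25.6, 24.5 and 27.1 CPM, a rise of 2.97-fold (1.57 ± 0.11, adjusted p = 1e-11). EDEM1 (55.2, 57.8 and 58.6 CPM) rose by 0.29 ± 0.059 against untreated cells but was at -0.06 against the vehicle control (adjusted p = 0.34). HERPUD1 (48.2, 49.6 and 46.4 CPM) did not pass against untreated cells (interval -0.08 to 0.25), and against the vehicle control it fell by 0.46 (adjusted p = 1.3e-05). When only library size was used, the median of all genes in this comparison was 0.36, 66.8% in place of 51.4% of calls were increases, and XBP1 was at 0.00.

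Added to doxorubicin, CKI lowered 6 of the 10 genes (29.8% of all genes) and raised 3 (33.8%). CRELD2 fell 5.59-fold (-2.48 ± 0.07, adjusted p = 7e-18), the largest change of a member in any of the 15 comparisons but the difference between the untreated lines, and the member among the 8.03% of genes that fell over 2-fold. HSP90B1 fell by 0.66, PDIA4 by 0.54, SDF2L1 by 0.37, XBP1 by 0.22 and HSPA5 by 0.21. DNAJB9 rose by 0.32, EDEM1 by 0.29 and HERPUD1 by 0.27, and CALR did not pass (interval -0.16 to 0.06), but with the GC and length offsets CALR rose by 0.13 (adjusted p = 0.011). With these offsets XBP1 (-0.10, adjusted p = 0.055) and SDF2L1 (-0.09, adjusted p = 0.29) no longer passed, so that 4 genes were lower (29.5% of all genes) and 4 higher (36.5%).

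Against CKI alone, the combination lowered 9 of the 10 genes (34.8% of all genes, with 38.5% higher), 7 of them over 2-fold (9.06%). PDIA4 fell 3.06-fold (-1.61 ± 0.054), HSPA5 2.22-fold (-1.15 ± 0.049), HERPUD1 2.2-fold (-1.14 ± 0.076) and CRELD2 2.26-fold (-1.18 ± 0.07), and DNAJB9 did not pass (interval -0.32 to 0.07). By library size alone PDIA4 was the single member over 2-fold, the median of all genes was 0.26, and 66.3% in place of 52.5% of calls were increases.

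The effect of CKI differed between A431 cells with and without doxorubicin in 8 of the 10 genes, tested as the interaction of the 2 agents. All 8 were lower, against 26% of all genes, and 31.4% of all genes were higher. CRELD2 (-1.74 ± 0.095) and DNAJB9 (-1.37 ± 0.15) were the members past 2-fold, beside 10.9% of all genes. The interaction was -0.96 in HERPUD1, -0.88 in EDEM1, -0.75 in XBP1, -0.71 in PDIA4, -0.70 in HSP90B1 and -0.33 in HSPA5. CALR (interval -0.29 to 0.02) and SDF2L1 (-0.38 to 0.25) did not pass. HERPUD1, for example, was 106 ± 5.76 CPM (SD, n = 3) with CKI against 45.3 ± 0.774 untreated, but 48.1 ± 1.61 with both agents against 40.0 ± 0.528 with doxorubicin. With the vehicle as control all 10 passed and all were lower, with CRELD2 the single one past 2-fold. Under library size alone 4 members were past 2-fold, 44% in place of 54.6% of all calls were increases, and none of the members turned in direction.

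**Figure D3:**
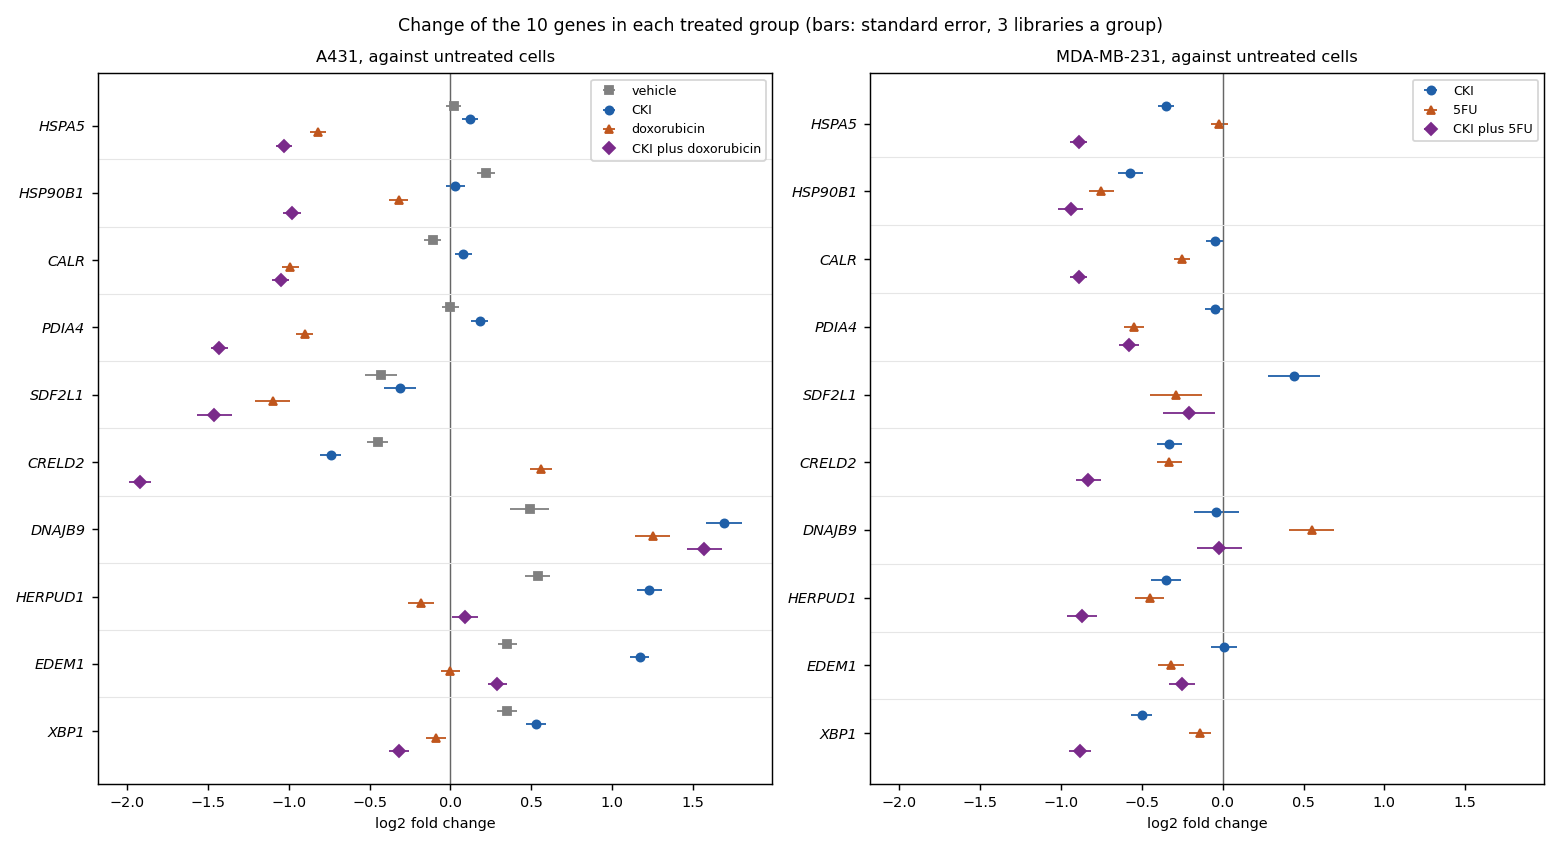
Log2 fold change (x) of the 10 genes (rows) in each treated group against untreated cells of its line, A431 at left and MDA-MB-231 at right, with the standard error as bars and 3 libraries a group. In A431, CKI (circles) lay furthest right for DNAJB9, HERPUD1 and EDEM1 at 1.69, 1.23 and 1.17, and CKI with doxorubicin (diamonds) lay furthest left for CRELD2 at -1.92, whereas in MDA-MB-231 the values lay between -0.94 and 0.55.

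In MDA-MB-231 cells CKI lowered HSP90B1, XBP1, HSPA5, HERPUD1 and CRELD2, and DNAJB9 and EDEM1 were near the untreated level. Here 5 of the 10 genes fell, against 18.8% of all genes, and 1 rose, against 17.4%. HSP90B1 had 1000, 1020 and 1000 CPM and fell 1.49-fold (log2 -0.57 ± 0.078, adjusted p = 0.00016). XBP1 had 77.9, 81.0 and 78.6 CPM and fell 1.42-fold (-0.50 ± 0.066, adjusted p = 0.00011). HSPA5 had 916, 899 and 915 CPM and fell 1.27-fold (-0.35 ± 0.052, adjusted p = 0.00031). In these 3 genes no CKI library reached the level of an untreated one. HERPUD1 (48.7, 46.1 and 44.6 CPM) fell by 0.35 ± 0.09 and CRELD2 (18.7, 19.5 and 18.2 CPM) by 0.33 ± 0.078. SDF2L1 (35.3, 41.2 and 39.8 CPM) rose by 0.44 ± 0.16 (adjusted p = 0.042), a call lost when any of the 3 CKI libraries was left out (adjusted p 0.053 to 0.12).

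CALR (2000, 1870 and 1940 CPM, interval -0.16 to 0.06), PDIA4 (316, 314 and 329 CPM, -0.19 to 0.08), EDEM1 (86.4, 89.6 and 89.6 CPM, -0.17 to 0.18) and DNAJB9 (23.4, 19.1 and 20.0 CPM, -0.35 to 0.28) did not pass. Without replicate 1 of the untreated cells, SDF2L1 was higher by 0.25 (adjusted p = 0.013), HERPUD1 lower by a log2 value of -0.23 (adjusted p = 0.0023), PDIA4 lower (-0.12, adjusted p = 0.021) and DNAJB9 at 0.19 (adjusted p = 0.081). By library size alone the split of all calls moved from 47.9% to 61.1% increases, and HSP90B1, XBP1, HSPA5, HERPUD1 and CRELD2 were still lower and SDF2L1 higher. Of the 6 MDA-MB-231 markers, 3 were lower with CKI, and 5 were lower and 1 higher both with 5FU and with CKI and 5FU. Their summed level was 2330 to 2360, 2120 to 2200 and 1910 to 1940 CPM in these groups against 3440 to 3920 CPM in untreated cells, and their part in the results was not tested.

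5FU lowered 6 of the 10 genes in MDA-MB-231 (28.5% of all genes) and raised 1 (28.6%). HSP90B1 fell 1.68-fold (868, 867 and 934 CPM, log2 -0.75 ± 0.078, adjusted p = 6.7e-06), PDIA4 1.47-fold (224, 226 and 229 CPM, -0.55 ± 0.061) and HERPUD1 1.36-fold (43.7, 41.2 and 45.5 CPM, -0.45 ± 0.09). CRELD2 (18.5, 19.8 and 18.1 CPM) fell by 0.33, EDEM1 (69.6, 70.7 and 72.0 CPM) by 0.32 and CALR (1660, 1690 and 1730 CPM) by 0.25. DNAJB9 rose 1.47-fold (29.7, 32.8 and 31.7 CPM, 0.55 ± 0.14, adjusted p = 0.0054), and all 5FU libraries were above all untreated ones. HSPA5 (1140, 1110 and 1180 CPM, interval -0.13 to 0.09), SDF2L1 (23.4, 23.6 and 23.1 CPM, -0.63 to 0.06) and XBP1 (95.7, 108 and 102 CPM, -0.29 to 0) did not pass. Leaving out replicate 1 of the untreated cells, SDF2L1 fell by 0.48 (adjusted p = 2.4e-05) and DNAJB9 rose by 0.78 (adjusted p = 8e-09). With no TMM factors the median of all genes was 0.13, CALR (-0.12) and EDEM1 (-0.19) no longer passed, and 63.3% in place of 50% of calls were increases.

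CKI with 5FU gave the lowest MDA-MB-231 levels of 7 of the genes. Against untreated cells 8 of the 10 fell (23.7% of all genes, with 26% higher), each by under 2-fold. HSP90B1 had 755, 795 and 798 CPM (-0.94 ± 0.079, adjusted p = 2e-06), HSPA5 597, 637 and 636 CPM (-0.89 ± 0.052, adjusted p = 1.2e-07) and CALR 1080, 1060 and 1110 CPM (-0.89 ± 0.051, adjusted p = 1e-07). XBP1 had 60.6, 59.8 and 62.7 CPM (-0.88 ± 0.067), HERPUD1 32.1, 32.6 and 32.3 CPM (-0.87 ± 0.091) and CRELD2 12.4, 13.3 and 14.1 CPM (-0.83 ± 0.079). In these 6 genes all libraries with both agents were below all untreated ones, by 1.78-fold to 1.91-fold on average. PDIA4 (218, 218 and 228 CPM) fell by 0.58. EDEM1 (72.7, 80 and 69.1 CPM) fell by 0.25 ± 0.08 (adjusted p = 0.019), with libraries that overlapped the untreated ones, and the call was lost when any of 4 of the 6 libraries was left out (adjusted p 0.061 to 0.08).

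SDF2L1 (24.0, 21.7 and 28.4 CPM, interval -0.55 to 0.14) and DNAJB9 (20.0, 21.2 and 22.1 CPM, -0.33 to 0.29) did not pass with CKI and 5FU. When replicate 1 of the untreated cells was left out, SDF2L1 fell by 0.40 (adjusted p = 0.00021) and DNAJB9 rose by 0.20 (adjusted p = 0.043). With no TMM factors the median of all genes was 0.16, 69.6% in place of 52.4% of calls were increases, and EDEM1 (-0.11, adjusted p = 0.26) no longer passed.

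Added to 5FU, CKI lowered 6 of the 10 genes (24.5% of all genes, with 25.9% higher). HSPA5 fell 1.83-fold (-0.87 ± 0.052, adjusted p = 1.5e-07), XBP1 1.67-fold (-0.74 ± 0.066), CALR 1.56-fold (-0.64 ± 0.051) and DNAJB9 1.49-fold (-0.57 ± 0.14, adjusted p = 0.0051). CRELD2 fell by 0.50 and HERPUD1 by 0.43. HSP90B1 (interval -0.35 to -0.01, adjusted p = 0.067), PDIA4 (-0.16 to 0.1), SDF2L1 (-0.27 to 0.42) and EDEM1 (-0.11 to 0.24) did not pass.

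Against CKI alone, the combination lowered 9 of the 10 genes (20% of all genes, with 22.1% higher), led by CALR (-0.84 ± 0.051), SDF2L1 (-0.65 ± 0.16) and HSPA5 (-0.54 ± 0.052). DNAJB9 did not pass (interval -0.3 to 0.33), but with the GC and length offsets it fell by 0.27 (adjusted p = 0.013), in a comparison whose all-gene rho with GC content was -0.52. EDEM1 fell by 0.26 (adjusted p = 0.021), and leaving out any of 4 of the 6 libraries ended that call (adjusted p 0.056 to 0.084). By library size alone 64.1% in place of 52.5% of calls were increases, and EDEM1 did not pass (-0.19, adjusted p = 0.075).

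The interaction of CKI and 5FU passed in 3 of the 10 genes. HSPA5 (-0.53 ± 0.074, adjusted p = 0.00031) and CALR (-0.59 ± 0.072, adjusted p = 0.00012) were lower with both agents than the separate effects add up to, against 14.3% of all genes. HSP90B1 was higher (0.39 ± 0.11, adjusted p = 0.019), against 17.1%, and this call was lost without replicate 1 or without replicate 2 of the 5FU cells (adjusted p = 0.051 each). When replicate 1 of the untreated cells was left out 5 genes passed, against 49.1% of all genes (31.4% with it), with DNAJB9 (-0.76, adjusted p = 5.2e-06) and XBP1 (-0.29, adjusted p = 0.0018) added.

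**Figure D4:**
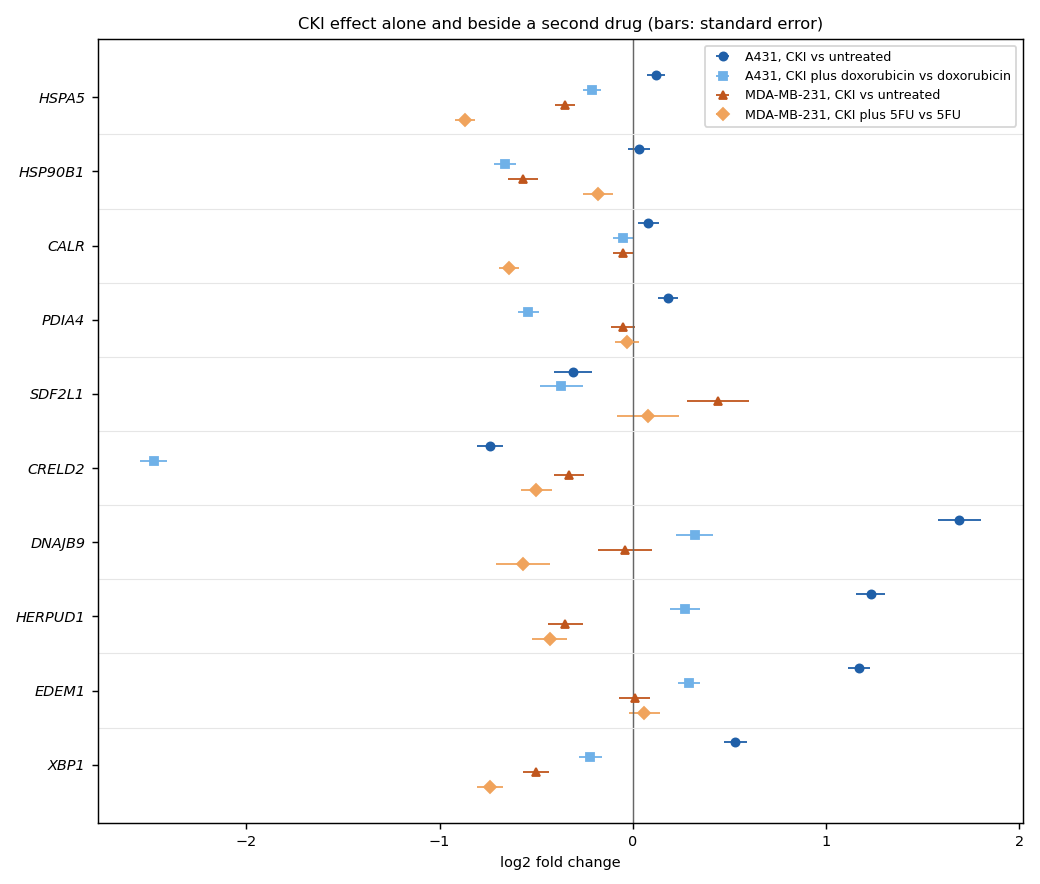
Log2 fold change (x, bars give the standard error) for the addition of CKI to A431 cells without (circles) and with (squares) doxorubicin, and to MDA-MB-231 cells without (triangles) and with (diamonds) 5FU, for the 10 genes (rows). EDEM1 lay at 1.17 in A431 cells and 0.29 in A431 cells with doxorubicin, and at 0.01 and 0.06 in MDA-MB-231 cells without and with 5FU.

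The CKI effect differed between the lines in 8 of the 10 genes, tested in 1 fit over 12 libraries, untreated and CKI from each line. In 6 genes the change was higher in A431 than in MDA-MB-231 (23.1% of all genes), 4 of them by over 2-fold (8.87%). These 4 were DNAJB9 (1.74 ± 0.23, adjusted p = 3.6e-05), HERPUD1 (1.59 ± 0.14, adjusted p = 9.8e-07), EDEM1 (1.17 ± 0.11, adjusted p = 1.6e-06) and XBP1 (1.04 ± 0.11, adjusted p = 4.2e-06). HERPUD1, XBP1 and HSPA5 went up in A431 and down in MDA-MB-231, past the test in each line, and SDF2L1 went the other way round. As given above, the HSPA5 rise in A431 and both SDF2L1 calls were lost when certain single libraries were left out. HSP90B1 (0.61 ± 0.12) and HSPA5 (0.47 ± 0.081) also differed. SDF2L1 (-0.75 ± 0.19, adjusted p = 0.0062) and CRELD2 (-0.40 ± 0.11, adjusted p = 0.0067) were lower in A431, against 23.9% of all genes, but with the GC and length offsets these 2 values were 0.07 and 0.16, neither past the test. The CRELD2 call was also lost without CKI replicate 1 or without untreated replicate 3 of A431 (adjusted p = 0.06 each), and that of SDF2L1 without untreated replicate 3 (adjusted p = 0.051). CALR (interval -0.05 to 0.33) and PDIA4 (0.03 to 0.45, adjusted p = 0.062) did not pass, but PDIA4 passed when any of 5 of the 12 libraries was left out (adjusted p 5e-04 to 0.047) and CALR without A431 untreated replicate 3 (0.26, adjusted p = 0.026). With the vehicle as the A431 control, the differences were 1.26 in DNAJB9, 1.04 in HERPUD1, 0.82 in EDEM1 and 0.70 in XBP1, all past the test and 2 over 2-fold. CRELD2 was then at 0.04 and SDF2L1 at -0.31 (adjusted p = 0.35).

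Further genes of the response were read from 5 lists, beside the shares of all genes that rose and fell. These were 33.3% and 33.7% with CKI in A431 (32% and 33% against the vehicle control), 40.7% and 39.9% with doxorubicin, and 40.7% and 38.5% with both. In MDA-MB-231 they were 17.4% and 18.8% with CKI, 28.6% and 28.5% with 5FU, and 26% and 23.7% with both. Of the 7 sensors and proteases that activate them, 6 rose with CKI in A431 and none fell, with a median of 0.52 against 0 for all genes. The largest rise was that of EIF2AK3, the gene of PERK (1.53 ± 0.081, 9.52 to 27.7 CPM), and the smallest that of ATF6B (0.29). Against the vehicle control 4 rose and 1 fell (median 0.35). In MDA-MB-231, 2 of the 7 rose with CKI, EIF2AK3 (0.73) and MBTPS1 (0.17), and none fell (median 0.04). The MBTPS1 call was lost with the replicate block, the likelihood ratio test, no filter or the compared groups alone, and without any 1 of the CKI libraries or untreated replicate 3 (adjusted p between 0.058 and 0.15). With doxorubicin 2 of the 7 rose and 5 fell, with EIF2AK3 at 1.28 and CREB3L2 at -1.48, and with 5FU 2 rose and 3 fell, with ERN1, the gene of IRE1, at 2.03 and ATF6B at -1.21. With CKI and doxorubicin 2 of the 7 rose and 5 fell (median -0.45), with EIF2AK3 at 1.80 and CREB3L2 at -0.72. With CKI and 5FU 3 rose and 3 fell (median -0.02), with ERN1 at 1.29 and ATF6B at -0.56.

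Of 17 other ER chaperones and folding enzymes, 7 rose and 2 fell with CKI in A431 (median 0.10), from ERO1B, an ER oxidase, at 1.60 to the prolyl isomerase PPIB at -0.63. Against the vehicle control 5 rose and 4 fell (median 0). With doxorubicin 14 fell and 2 rose (median -0.50), from ERO1B at 1.77 to TXNDC5 at -1.59, and with CKI and doxorubicin 14 fell and 2 rose (median -0.56). In MDA-MB-231, 4 fell and 2 rose with CKI (median -0.02), 8 fell and 2 rose with 5FU (median -0.23), and 10 fell and 1 rose with CKI and 5FU (median -0.31, PPIB at -0.76). Without replicate 1 of untreated MDA-MB-231, 13 of the 17 passed with CKI in place of 6, 13 with 5FU in place of 10 and 12 with both in place of 11, where 51.9%, 69.4% and 67.4% of all genes passed. The medians of all genes lay between -0.01 and 0.05 in these comparisons.

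Of 15 other genes of ER-associated degradation, 14 were tested in A431, and with CKI 10 rose and 3 fell (median 0.34), from SEL1L, the partner of the ligase HRD1, at 1.12 to DERL2 at -0.51. Against the vehicle control 9 rose and 3 fell (median 0.22). In MDA-MB-231 CKI raised 2 and lowered 2 of 15 (median 0.09), with EDEM2 at 0.39 and UBE2J1 at -0.28, but 9 passed without replicate 1 of the untreated cells and 2 without replicate 1 of the CKI cells. Doxorubicin raised 6 and lowered 5 of 14 (OS9 at 0.79, UBE2J1 at -0.99), shares near those of all genes. 5FU raised 4 and lowered 5 of 15 (FAF2 at 0.52, EDEM2 at -1.06), which were also near those of all genes, and 12 passed without replicate 1 of the untreated cells. The difference of the CKI effect between the lines passed in 8 of the 15, with 7 higher in A431 (23.1% of all genes were), and in 5 with the vehicle as control. Of 25 genes of the translocon and of ER to Golgi transport, 8 rose and 13 fell with CKI in A431 (median -0.26), from SEC24D, a coat protein of COPII vesicles, at 1.70 to SSR4 at -0.84. Against the vehicle control 3 rose and 13 fell (median -0.22). With doxorubicin 4 of the 25 rose and 19 fell (median -0.42), and with CKI and doxorubicin 6 rose and 19 fell (median -0.45), both against untreated cells. In MDA-MB-231 4 rose and 1 fell with CKI, where 15 passed without replicate 1 of the untreated cells and 3 without replicate 1 or replicate 3 of the CKI cells. With 5FU 5 rose and 10 fell (median -0.12), where 9 passed with the compared groups alone. With CKI and 5FU 3 rose and 8 fell (median -0.05), where 18 passed without replicate 1 of the untreated cells.

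Of the 8 genes of the PERK and ATF4 branch, 5 rose and 3 fell with CKI in A431, from ATF3, a stress-induced transcription factor, at 4.81 ± 0.11 to ASNS, the asparagine synthetase, at -1. ATF3 was at 12.3 ± 1.78 CPM (SD, n = 3) in untreated cells, at 346 ± 44.7 with CKI and at 439 ± 56.6 with the vehicle alone, a vehicle difference of 5.16 ± 0.12 (adjusted p = 3.3e-19). Relative to untreated cells ATF3 was higher with doxorubicin (3.6, 149 ± 3.87 CPM) and with CKI and doxorubicin (3.67, 157 ± 8.39 CPM). In each, 4 of the 8 genes rose and 3 fell. Against the vehicle control ATF3 was lower, at -0.34 with CKI (adjusted p = 0.0018), -1.55 with doxorubicin and -1.48 with both, and of the 8 genes 2 rose and 6 fell with CKI (median -0.35 in place of 0.57). ASNS was lower in each group with CKI, doxorubicin or 5FU than in untreated cells, between -0.98 and -1.99, and with the vehicle it was higher by 0.25 (adjusted p = 0.0083). In MDA-MB-231 CKI raised 1 (PPP1R15A, 0.28) and lowered 4 of the 8, and 5FU raised 3 and lowered 4, with DDIT3, the gene of the transcription factor CHOP, at 1.95 ± 0.12.

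Over the 27 libraries, with the mean of each line subtracted, the genes outside the 10 whose log2 CPM followed HSPA5 most closely were MANF (Pearson r = 0.944), AARS1 (0.942), OLFML2A (0.933), ACKR3 (0.927) and CYB561 (0.926), of 16669 genes compared. MANF is a secreted ER stress-response protein and AARS1 the alanyl-tRNA synthetase. Among the 10, CALR followed HSPA5 most closely (0.949), then XBP1 (0.871), PDIA4 (0.855) and HSP90B1 (0.81), with HERPUD1 at 0.69 and SDF2L1 at 0.675. Among all genes compared, CALR ranked 1, XBP1 50, PDIA4 82, HSP90B1 194, HERPUD1 986 and SDF2L1 1153, so many other genes followed HSPA5 more closely. EDEM1 (0.41) and CRELD2 (0.37) were far lower, and DNAJB9 was at -0.227. The libraries share their groups and depth, and these values describe the 9 groups more than 27 independent points. The highest group mean over the lowest within A431 was 5.58 for CRELD2, 3.25 for DNAJB9 and 3.05 for PDIA4, and between 1.8 and 2.76 for the other 7 genes. Within MDA-MB-231 it was between 1.25 (EDEM1) and 1.92 (HSP90B1).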

How the data were processed

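RNA of A431 and MDA-MB-231 cells was sequenced as unstranded paired-end libraries. The authors deposited whole-number read counts per gene and library. The submitters' processing notes name Trim Galore 0.3.7 (a read trimmer), STAR 2.5.3a (an aligner), edgeR and hg19, without saying how each was used. The counting program, annotation and strand setting are not given in the sources used here, and where HSP90B1 reads shared with its pseudogenes were put is not given either. All groups came from the sample titles. Of 24566 rows, 1597 held no count and 24422 matched a symbol in a RefSeq table. Gene positions, transcript length and GC content came from a GENCODE annotation of GRCh37, for 99.5% of rows.

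Counts were tested with edgeR 4.0.16 in R 4.3.3 (TMM, filterByExpr, glmQLFit, glmQLFTest), with all groups of a line in 1 fit and the 12 untreated and CKI libraries in the fit between lines. There were 15 comparisons, 3 of them interactions. P-values were Benjamini-Hochberg adjusted over all genes tested, and intervals are 95% t intervals. P-values set a difference between groups against the spread between these libraries, estimated over all libraries of a fit. With 3 libraries a group the precision of a small change is limited. Log2 CPM used a prior count of 2. The fits were also run on simulated counts in which a small set of genes changed, as many up as down. That simulation held no wide change, outlying library or GC trend, so it did not test TMM scaling under these.

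Alternatives were DESeq2 1.42.0, RLE factors, library size alone, the likelihood ratio test, no filter, at least 10 counts in every library, the compared groups alone, the replicate block, GC and length offsets (lowess, span 0.3), both together, the vehicle as control, and leaving out each library. The vehicle with offsets was added after seeing the data. The 10 genes, the lists and the tests were chosen with earlier results of these data known. Named in the text are the 10 genes, the genes of largest and smallest change past the test in each further list against untreated cells, and the 5 genes most like HSPA5. ATF3 and ASNS were followed beyond these ends after their values were seen. The labels list 2 doxorubicin doses without saying which the libraries received, so none is given.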

Additional observations from a re-analysis of the deposited data

Results flagged for a closer look

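The effect of CKI differed between conditions in 19 tests of an interaction on single genes, by edgeR's quasi-likelihood test with adjusted p under 0.05. With 3 libraries in each group, outlying samples were not tested.

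Between A431 cells with and without doxorubicin, the log2 effect of CKI was lower with doxorubicin in 8 genes: by -1.74 in CRELD2, -1.37 in DNAJB9, -0.96 in HERPUD1, -0.88 in EDEM1, -0.75 in XBP1, -0.71 in PDIA4, -0.70 in HSP90B1 and -0.33 in HSPA5. With the vehicle in place of untreated cells these values were -2.19, -0.89, -0.42, -0.53, -0.41, -0.71, -0.48 and -0.30, and each passed.

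Between MDA-MB-231 cells with and without 5FU, the difference was -0.59 in CALR, -0.53 in HSPA5 and 0.39 in HSP90B1. Without replicate 1 of the untreated cells, the library that stood apart, these were -0.57, -0.49 and 0.28, and each passed.

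Between A431 and MDA-MB-231 cells, the difference in the CKI effect was 1.74 in DNAJB9, 1.59 in HERPUD1, 1.17 in EDEM1, 1.04 in XBP1, 0.61 in HSP90B1, 0.47 in HSPA5, -0.40 in CRELD2 and -0.75 in SDF2L1. Without replicate 1 of untreated MDA-MB-231 they were 1.51, 1.45, 1.25, 0.98, 0.49, 0.49, -0.39 and -0.56.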

How the results depend on the processing

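Of 1600 values of the 10 genes under another setting, 1475 kept direction and side of the test, 35 lost the call, 61 gained one and 29 turned in sign with a call on either side. Of 1080 values with 1 library left out, 1032 kept both. Pairs of values that both missed the test were counted as kept whatever their sign, which changed in 65. The cause of the changes below was not tested.

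With library size alone, members over 2-fold numbered 1 (main 2) for doxorubicin, 1 (main 7) for CKI plus doxorubicin against CKI and 4 (main 2) for the CKI by doxorubicin interaction, and the CKI by 5FU interaction passed in 5 members (main 3). Log2 changes with doxorubicin were then 0.34 in EDEM1, 0.16 in HERPUD1, 0.02 in HSP90B1 and 0.25 in XBP1, and 0.00 in XBP1 with CKI plus doxorubicin. Members lower by over 2-fold with CKI plus doxorubicin numbered 3 (main 5) there and with DESeq2, RLE factors, 10 counts in every library or the compared groups alone. Asking for 10 counts in every library left 1 member over 2-fold for doxorubicin and put EDEM1 at 0.16.

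With GC and length offsets, 3 members passed for the vehicle (main 7), 5 for the CKI by 5FU interaction, and 1 was over 2-fold for CKI plus 5FU (main 0, HSP90B1). Turned values were 0.24 for SDF2L1 with CKI in A431, 0.15 for SDF2L1 and -0.14 for HSPA5 with the vehicle, 0.13 for CALR on adding CKI to doxorubicin (where 4 members were lower, main 6), -0.27 for DNAJB9 for CKI plus 5FU against CKI, 0.07 for SDF2L1 and 0.16 for CRELD2 in CKI by line, and 0.09 for HSP90B1 between untreated lines. PPIB (0.01), SSR4 (0.04) and SYVN1 (0.01) turned for the vehicle.

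With the vehicle as control, members over 2-fold numbered 1 for CKI (main 3, and 1 with offsets too) and 2 for CKI by line (main 4). They numbered 1 for doxorubicin (CRELD2, in place of SDF2L1 and DNAJB9) and 1 for the CKI by doxorubicin interaction. Values were 0.13 for SDF2L1 (0.09 with offsets) and -0.19 for HSP90B1 with CKI, -0.06 for EDEM1 and -0.46 for HERPUD1 (-0.44 with offsets) with CKI plus doxorubicin, 0.04 for CRELD2 in CKI by line and 0.21 for HERPUD1 between lines. ATF3 was at -0.34, -1.55 and -1.48 with CKI, doxorubicin and both (-0.17, -1.68 and -1.48 with offsets).

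No pairing of samples by replicate number was seen, as in no comparison did every same-numbered pair correlate over 0.1 (the lowest was between -0.47 and 0.03). With 3 pairs in a comparison these correlations cannot exclude it. With the replicate block the counts of members past the test stayed at 8 for CKI, 8 for doxorubicin and 7 for the vehicle in A431 and at 6 for CKI in MDA-MB-231. With the block and the offsets together they were 8, 9, 3 and 6, the CKI by 5FU interaction passed in 5, and 1 member was over 2-fold for CKI plus 5FU. The turned values were then 0.25 for SDF2L1 with CKI, 0.15 for SDF2L1 and -0.14 for HSPA5 with the vehicle, 0.13 for CALR, -0.27 for DNAJB9, 0.07 for SDF2L1, 0.17 for CRELD2, and 0.01, 0.04 and 0.01 for PPIB, SSR4 and SYVN1.

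Leaving out 1 library ended 10 member calls and made 13. The CKI by 5FU interaction passed in 2 to 5 members. DNAJB9 ranged from -0.14 to 0.20 with CKI plus 5FU, and HSP90B1 from -0.10 to 0.11 between untreated lines. Over all genes, those past the test numbered 6748 for the vehicle (3577 with offsets, 3592 with the block too, 4395 with the compared groups alone), 5066 for CKI in MDA-MB-231 (2930 with the compared groups alone) and 4396 for the CKI by 5FU interaction (6969 without untreated replicate 1). Asking for 10 counts in every library moved genes over 2-fold from 5925 to 3197 for doxorubicin, 5633 to 3100 for CKI plus doxorubicin, 2369 to 1431 against doxorubicin, 4077 to 1837 against CKI (6171 with no filter), 404 to 174 for the vehicle (244 with offsets, 238 with the block too, 263 with the compared groups alone), 835 to 504 for CKI in MDA-MB-231, 1266 to 833 for CKI plus 5FU, 1368 to 903 against 5FU, 533 to 340 against CKI (342 with offsets, 340 with the block too) and 6367 to 3631 between untreated lines. Counts in the further lists moved by over 1.5 times in single settings too, as for the degradation genes with 5FU, from 9 to 4 with the compared groups alone.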
